A study of Drosophila melanogaster with 2 samples.

Results

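Myo31DF, Myo61F, Cad99C and Cad87A are 4 genes grouped here for the intestinal brush border, 2 of them class I myosins and 2 cadherins, and their binding by the GATA factor GATAe was examined in Drosophila melanogaster embryos. The genes were chosen by name, with earlier results of these data known. They are 4 of 13968 protein-coding genes on the chromosome arms. For each, every peak summit in the gene body or the 2 kb upstream of it (its window) was taken from all deposited peak lists. The data came from chromatin immunoprecipitation with sequencing on whole embryos of strain GATAe-GFP, aged 0 to 24 h, which carry a GATAe-eGFP fusion recovered through its GFP tag with an anti-GFP antibody, per the sample descriptions. Another label field gives the antibody as GATAe, and which applies was not settled here. The 1 group held 2 biological replicates with no other genotype or treatment. Whether untagged GATAe was also present is not given in the sources used here. Whole embryos mix all cell types and all embryonic stages, so a peak cannot be placed in the gut or at a stage, and binding in few cells cannot be told apart from weak binding in many.

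GATAe is an endodermal GATA factor needed for terminal differentiation of the fly midgut. The brush border is the layer of actin-filled microvilli on the apical face of midgut enterocytes. Class I myosins tether the microvillar membrane to its actin core. Protocadherins of the microvillus act at the membrane, where they link or space neighbouring protrusions. GATA factors bind the core GATA, most often within WGATAR, where W is A or T and R is A or G.

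Both myosin genes held peaks of the conservative list, and neither cadherin gene did. This list pairs the replicates and stops at an irreproducible discovery rate (IDR, the share of accepted peaks estimated to be unrepeatable) of 0.01. Myo61F held 4 of its summits and Myo31DF held 1. A summit was present in 19.0% of all protein-coding genes, and in 34.4% of those with a window of 10 to 20 kb, the length class of Myo31DF, Myo61F and Cad99C. In the class of 50 kb or more, that of Cad87A, the share was 46.8%. The 2 of 4 genes with a summit are therefore near what windows of these lengths held in general. A count of 4 or more summits, a cutoff set at the count of Myo61F itself, was found in 0.802% of all genes. In the 10 to 20 kb class it was found in 2.03%. In the list called on pooled reads Myo61F held 3 summits. It held 1 in the thresholded list of replicate 1 and 2 in that of replicate 2, and no such share was computed for these lists.

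The sequence under the 5 conservative summits and under 3 weaker candidates is given first. The Myo31DF candidate is the one with the IDR nearest the threshold, while the cadherin candidates are the strongest by signal. These rules differ, so the candidates are not a like comparison of cores. The strongest uncalled Myo31DF candidate, at a signal of 45.6, had no GATA core within 50 bp. The Cad99C candidate of lowest IDR, 19.8%, had 1. Each is the dm6 plus strand, 5′ to 3′, over the summit and 50 bp on either side. Capitals mark each GATA core, read as GATA on this strand or as TATC where the core is on the other strand.
Myo61F, chr3L:1324960-1325060: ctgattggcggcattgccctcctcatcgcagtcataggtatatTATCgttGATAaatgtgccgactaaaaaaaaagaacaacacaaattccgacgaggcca
Myo61F, chr3L:1320434-1320534: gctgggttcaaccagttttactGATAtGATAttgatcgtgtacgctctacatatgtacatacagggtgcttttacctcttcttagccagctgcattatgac
Myo61F, chr3L:1325724-1325824: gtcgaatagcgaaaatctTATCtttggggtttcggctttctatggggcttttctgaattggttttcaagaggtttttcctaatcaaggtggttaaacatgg
Myo61F, chr3L:1323275-1323375: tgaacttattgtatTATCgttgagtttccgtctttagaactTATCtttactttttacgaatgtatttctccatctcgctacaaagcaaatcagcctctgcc
Myo31DF, chr2L:10502524-10502624: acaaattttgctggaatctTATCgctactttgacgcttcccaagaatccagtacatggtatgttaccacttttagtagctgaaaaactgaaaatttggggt
Myo31DF candidate, chr2L:10501965-10502065: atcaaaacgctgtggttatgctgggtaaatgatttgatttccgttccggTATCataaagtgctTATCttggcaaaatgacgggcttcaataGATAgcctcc
Cad99C candidate, chr3R:29853339-29853439: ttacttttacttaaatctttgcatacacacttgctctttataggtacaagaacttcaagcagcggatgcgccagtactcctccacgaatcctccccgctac
Cad87A candidate, chr3R:11935956-11936056: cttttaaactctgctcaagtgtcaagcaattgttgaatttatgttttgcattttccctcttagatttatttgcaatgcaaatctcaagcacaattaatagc

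Myo61F (FBgn0010246, chr3L:1318480-1329617, plus strand) encodes a class I myosin found in the gut brush border. It has 4 annotated transcripts, each with its own start site, and all 4 splice to the same second exon. Their first introns are 7225, 4814, 1365 and 734 bp long. All 4 conservative summits lay upstream of that second exon, 3 of them between the first and the last start site and 1 downstream of the last. None lay in the exons that follow.

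The strongest Myo61F peak (chr3L:1324830-1325189) had a signal value of 160, rank 492 of the 3047 peaks in the conservative list. Signal is the authors' own measure of peak strength, with no common scale between a replicate's lists and those that join both replicates. Its summit was 107 bp upstream of the most downstream start site and within intron 1 of the other three transcripts. Its listed IDR of 0.001% is the lowest value in the list, which 534 candidates share. The peak was thresholded in both replicates, with a signal of 91.1 in replicate 1 and 74.3 in replicate 2. Their summits were 19 and 8 bp from the paired one. It was the only one of the 5 peaks to overlap a thresholded peak in both replicates, a property of 46.5% of conservative peaks. Singly, 2 of the 5 overlapped a thresholded peak of replicate 1, beside 71.7% of conservative peaks, and 2 one of replicate 2, beside 55.1%. All 5 overlapped a ranked candidate of both replicates, as did 98.9% of conservative peaks. A TGATAA word was centred 1.5 bp from the summit, and a second core, CGATAA on the minus strand, was centred 5.5 bp on the other side.

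The next Myo61F peak (chr3L:1320304-1320663) lay in the long first intron of the longest transcript, 545 bp upstream of the second start site. Its signal was 90.0, rank 1592, with an IDR of 0.180%. In replicate 2 the overlapping peak had a signal of 55.4 and passed the threshold. In replicate 1 it had a signal of 34.0, rank 3215 of 31595 candidates, and did not pass. Within 50 bp of the summit were 2 copies of TGATAT, neither of them a WGATAR.

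The other two Myo61F peaks were weaker and did not pass the threshold in either replicate alone. The peak at chr3L:1325594-1325953 had a signal of 82.2, rank 1886, and an IDR of 0.754%. Its summit was in intron 1 of all 4 transcripts, 657 bp downstream of the last start site, with an AGATAAG centred 30.5 bp away. It was absent from the list called on pooled reads, in which the other three were present. The peak at chr3L:1323145-1323504 had a signal of 64.6, rank 2581, and an IDR of 0.962%, just inside the threshold of 0.01. Of all conservative peaks, 19.7% likewise overlapped a thresholded peak of neither replicate.

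That weakest peak lay over another annotated gene as well as Myo61F, and in the upstream part of the CG9184 window. Its summit was in an exon of the noncoding RNA gene lncRNA:CR45166 (chr3L:1322877-1324221, minus strand), which sits inside the Myo61F first intron. It was 519 bp from the start site of CG9184 (chr3L:1321792-1322806, minus strand), a protein-coding gene nested in the same intron, and 1238 bp from the nearest Myo61F start site. An AGATAAG was centred 7.5 bp from the summit and a CGATAA 34.5 bp from it. The peak therefore counts for both windows, and the list does not say which gene it belongs to.

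Myo31DF (FBgn0086347, chr2L:10491814-10506779, minus strand) encodes the other class I myosin of the gut brush border, also known for setting the left-right direction of organ looping in the fly. It has 3 transcripts and 1 start site. Its single conservative peak (chr2L:10502394-10502753) lay in a 7770 bp intron, 4205 bp downstream of the start. Its signal was 88.2, rank 1657 of 3047, with an IDR of 0.406%, so it was about midway down the list.

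In replicate 1 the Myo31DF peak had a signal of 59.3, rank 1157 of 31595 candidates, and passed the threshold. In replicate 2 the strongest overlapping candidate had a signal of 28.3, rank 4692 of 63150, and did not pass. The call at Myo31DF thus rests more on replicate 1. The 2 replicate summits were 16 and 78 bp from the paired summit. Within 50 bp of the summit was 1 core, CGATAAG on the minus strand, centred 29.5 bp away. It is not counted as WGATAR because C takes the place of W.

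A second Myo31DF candidate lay next to the called peak and did not pass the threshold. This candidate (chr2L:10501835-10502194) had a signal of 38.4 and an IDR of 5.24%. In replicate 2 it was the strongest candidate of the window, at a signal of 31.5 and rank 3517, above the called peak. In replicate 1 its signal was 20.5, rank 8237, below the called peak. The order of the pair was thus opposite in the replicates. It held 3 cores within 50 bp, 2 of them WGATAR, where the called peak held no WGATAR within 50 bp of its paired summit. This contrast depends on the summit position. The called peak held 2 WGATAR over its whole length, and 1 lay within 50 bp of its replicate 2 summit.

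At the Myo31DF start site itself there was a candidate only (chr2L:10506581-10506940), with a signal of 45.6 and an IDR of 7.92%. Its summit was 18 bp from the start site and had no GATA core within 50 bp. The same position lies in asRNA:CR44224 and in the window of the neighbouring gene CG6094.

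Cad99C (FBgn0039709, chr3R:29841657-29854699, plus strand) encodes the fly counterpart of a human Usher syndrome protocadherin and controls microvillus length in the ovarian follicle cells. It had no summit in the conservative list, in the pooled-read list or in either replicate's thresholded list. In those lists the share of protein-coding genes with a summit was 19.0%, 17.7%, 17.5% for replicate 1 and 12.4% for replicate 2. The ranked conservative list, which holds 62931 candidates before the threshold, had 8 summits in its window. A candidate is no call: all 4 genes had some in every ranked list, as did 81.1% of protein-coding genes in the conservative ranked list, 56.1% in the pooled-read one, 74.9% in that of replicate 1 and 81.5% in that of replicate 2. The highest (chr3R:29853209-29853568) had a signal of 36.5, rank 9704, and an IDR of 25.2%. It fell in a coding exon near the 3′ end, had a signal of 18.6 in replicate 1, and overlapped no candidate of replicate 2.

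A second Cad99C candidate of almost equal strength (chr3R:29847201-29847560, signal 36.1, IDR 19.8%) was intronic and had a candidate in both replicates. Their signals were 22.1 in replicate 1, rank 7025, and 17.1 in replicate 2, rank 22022. None of the 8 Cad99C candidates lay within 500 bp of a start site. None had a WGATAR within 50 bp, beside 18.0% of all candidates in that list.

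Cad87A (FBgn0037963, chr3R:11893512-11949129, minus strand) is a cadherin superfamily gene with 1 transcript and a longest intron of 29011 bp. Its window of 57.6 kb held 33 candidates, 27 of them intronic, and none in any thresholded list. The highest (chr3R:11935826-11936185) was in intron 2, with a signal of 40.2, rank 7533, and an IDR of 12.4%. Its signals were 18.3 in replicate 1 and 24.4 in replicate 2. No GATA core lay anywhere in its 360 bp.

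The Cad87A candidate at the start site (chr3R:11948789-11949148) had a signal of 31.3 and an IDR of 17.7%, with its summit 160 bp from the start and no GATA core within 50 bp. In this gene, 19 of the 33 candidates were listed at 85.3%, the highest IDR in the ranked list, as were 4 of 8 in Cad99C, 5 of 12 in Myo31DF, 5 of 15 in Myo61F and 43.4% of all candidates. Candidates with an IDR under 10% numbered 5 in Myo61F and 3 in Myo31DF, and there were 0 in both Cad99C and Cad87A. The myosin counts include their conservative peaks. No share over all candidates was computed for this cutoff, so no difference between the genes is read from it.

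**Figure D1:**
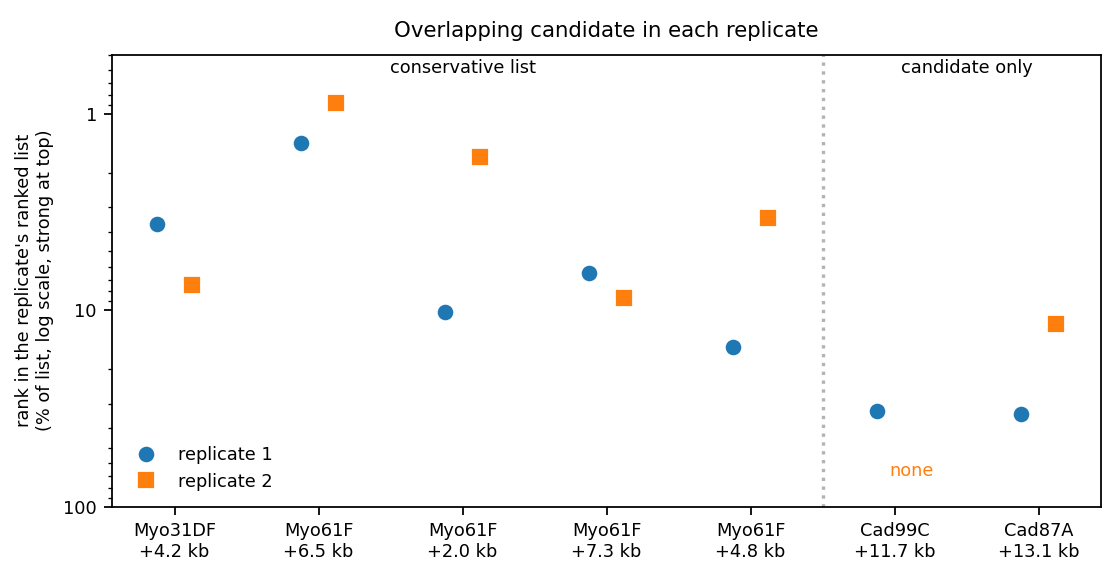
Rank of the strongest overlapping candidate in each replicate's own ranked list, as percent of that list on a log scale with strong candidates at the top, for the 5 conservative peaks and the strongest candidate of each cadherin gene, named by distance from the 5′-most start site. The Myo61F peak at +6.5 kb is in the top 1.41% of replicate 1 (rank 446 of 31595) and 0.885% of replicate 2 (rank 559 of 63150). The Cad99C candidate is at 32.4% in replicate 1 and has none in replicate 2. The lists differ in length, so percentages are not comparable between replicates.

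The strength of the best candidate was also set beside genes of like window length, as a description. In the 10 to 20 kb class of 1183 genes, with a median best signal of 50.02 over those with a candidate, 8.96% of genes had a stronger candidate than Myo61F. The figure was 25.7% for Myo31DF and 65.9% for Cad99C. In the class of 50 kb or more, of 342 genes with a median of 61.3, 78.7% had a stronger candidate than Cad87A. Myo61F was thus near the top of its class, and both cadherins were below the middle of theirs.

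All 5 conservative summits had a bare GATA core within 50 bp, a property of 72.1% of conservative summits. WGATAR was present at 3 of the 5, all in Myo61F, beside 46.0% of all conservative summits. GATAAG, a word of 6 letters like WGATAR, was also present at 3 of the 5, beside 28.9%. These were the Myo31DF summit and the Myo61F summits of signal 82.2 and 64.6, so not the same 3. In the whole peak, WGATAR was found in each of the 5, with 1 to 3 copies, beside 75.1% of conservative peaks. The word was searched on both strands, and a match is a description of the letters only.

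The windows were not alike in how many WGATAR words they held. Myo31DF had 46, or 2.71 per kb, and Myo61F had 30, or 2.28 per kb. Cad99C had 17, or 1.13 per kb, and Cad87A had 115, or 2.00 per kb. Over 2244 genes with windows of 10 to 100 kb the median was 1.91 per kb, with a range from the 10th to the 90th percentile of 1.40 to 2.62. Myo31DF was above that range, Cad99C below it and the other two within it.

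Most words had no summit near them. In Myo61F, 3 of its 30 words lay within 50 bp of a conservative summit and 6 within 50 bp of any candidate. In Myo31DF, 0 of 46 were near the conservative summit and 6 near a candidate. In Cad87A, 7 of 115 words were near a candidate, and in Cad99C 0 of 17. The 101 bp around each summit cover only a small part of each window. No share over all windows was computed, so these counts are a description only. The densest 101 bp of Myo31DF, with 3 words (chr2L:10498663-10498763), coincided with its weakest candidate, at a signal of 3.97. In Cad99C the densest 101 bp, also with 3 words, was 137 bp from the nearest candidate summit. A 101 bp stretch of Myo61F with 2 words, the most there, was centred 49 bp from a candidate summit of signal 36.6. Cad87A also held at most 2 words in 101 bp. Dense words thus lay at the weakest candidate in Myo31DF, while no Cad99C candidate had a signal above 36.5.

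**Figure D2:**
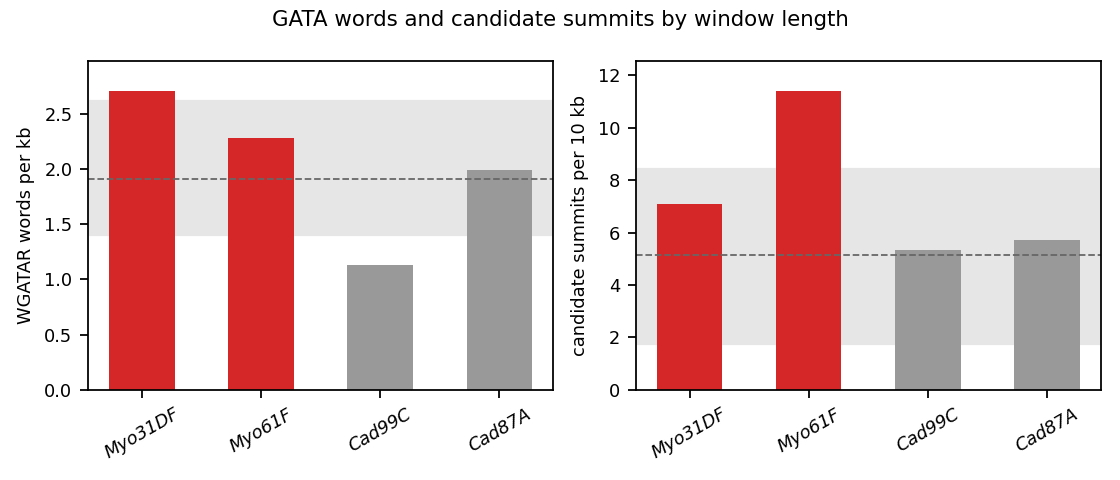
WGATAR words per kb (left) and candidate summits of the conservative ranked list per 10 kb (right) for each gene, with genes that hold a conservative summit in red, the median of 2244 windows of 10 to 100 kb as a dashed line and the 10th to 90th percentile in grey. Candidates per 10 kb were 11.4 in Myo61F, above the range of 1.76 to 8.45, and 7.07 in Myo31DF, 5.32 in Cad99C and 5.73 in Cad87A, within it.

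Conservative summits outside the windows were no closer than 5.26 kb. For Cad99C the nearest was 5.26 kb downstream, at a signal of 66.2, nearest to the start site of CG7824. For Cad87A it was 5.99 kb downstream, at a signal of 22.3 and 359 bp from the start site of mthl5. Upstream, the nearest were 36.6 kb from the Cad99C window and 59.5 kb from that of Cad87A. For the myosins the nearest was 6.84 kb downstream of Myo61F and 10.7 kb upstream of Myo31DF.

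Other unconventional myosins also held peaks. Of 10 such genes, 6 had a conservative summit, and the mean share over their length classes was 35.3%. The strongest was in jar, which encodes myosin VI, at a signal of 168, next to the 160 of Myo61F. Myo28B1 followed at 98.5, Myo95E at 89.3 and Myo81F at 69.1, in a window of 1968 kb. The Myo81F summit was 1950837 bp from its own start site. The median window in its length class was 74.4 kb, so the class share may be too low a comparison for this gene. The Myo95E summit was 140 bp from its own start site and 89 bp from that of TBC1d7. The Myo28B1 summit was 6781 bp from its own start site and 5561 bp from that of CG18585, the nearest protein-coding one. It lay within 500 bp of a start site of a gene that is not protein-coding. With the members, 8 of 12 unconventional myosin genes had a summit. Myo61F had the second strongest and Myo31DF the fifth, behind jar, Myo28B1 and Myo95E.

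Among the other cadherin superfamily genes, 0 of 14 had a conservative summit, as with Cad99C and Cad87A, beside a mean share of 37.3% over their length classes. The same 14 also had 0 in the pooled-read list and in each replicate's thresholded list. The 13 with a candidate had a median best signal of 38.3, below the median of every length class they fall in, which ran from 41.1 to 61.3 over genes with a candidate. The 36.5 of Cad99C and 40.2 of Cad87A lay on either side of it. The strongest was 64.5, in kug, one of the Fat-like cadherins. Its IDR was 1.05%, just outside the threshold, where the weakest Myo61F peak, at 64.6 and 0.962%, was just inside, so the count of 0 turns on a narrow margin at kug. No difference between the families was tested.

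Genes of the microvillus and the apical actin cytoskeleton were counted as the wider setting of the brush border. Of 19, 12 had a conservative summit, beside a mean share of 31.6% over their length classes. The strongest peaks were in sqh, a myosin regulatory light chain, at 155, sn, the actin bundler fascin, at 126, alpha-Spec, a spectrin, at 124, and kst, the apical beta-heavy spectrin, at 122. The peak of Myo61F was above all of these and that of Myo31DF below them. The sn peak was 1845 bp from the start site of sws and 2367 bp from that of sn. The alpha-Spec peak was 11088 bp from its own start site and 6801 bp from that of mRpL46, the nearest protein-coding one. It lay within 500 bp of a start site of a gene that is not protein-coding.

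**Figure D3:**
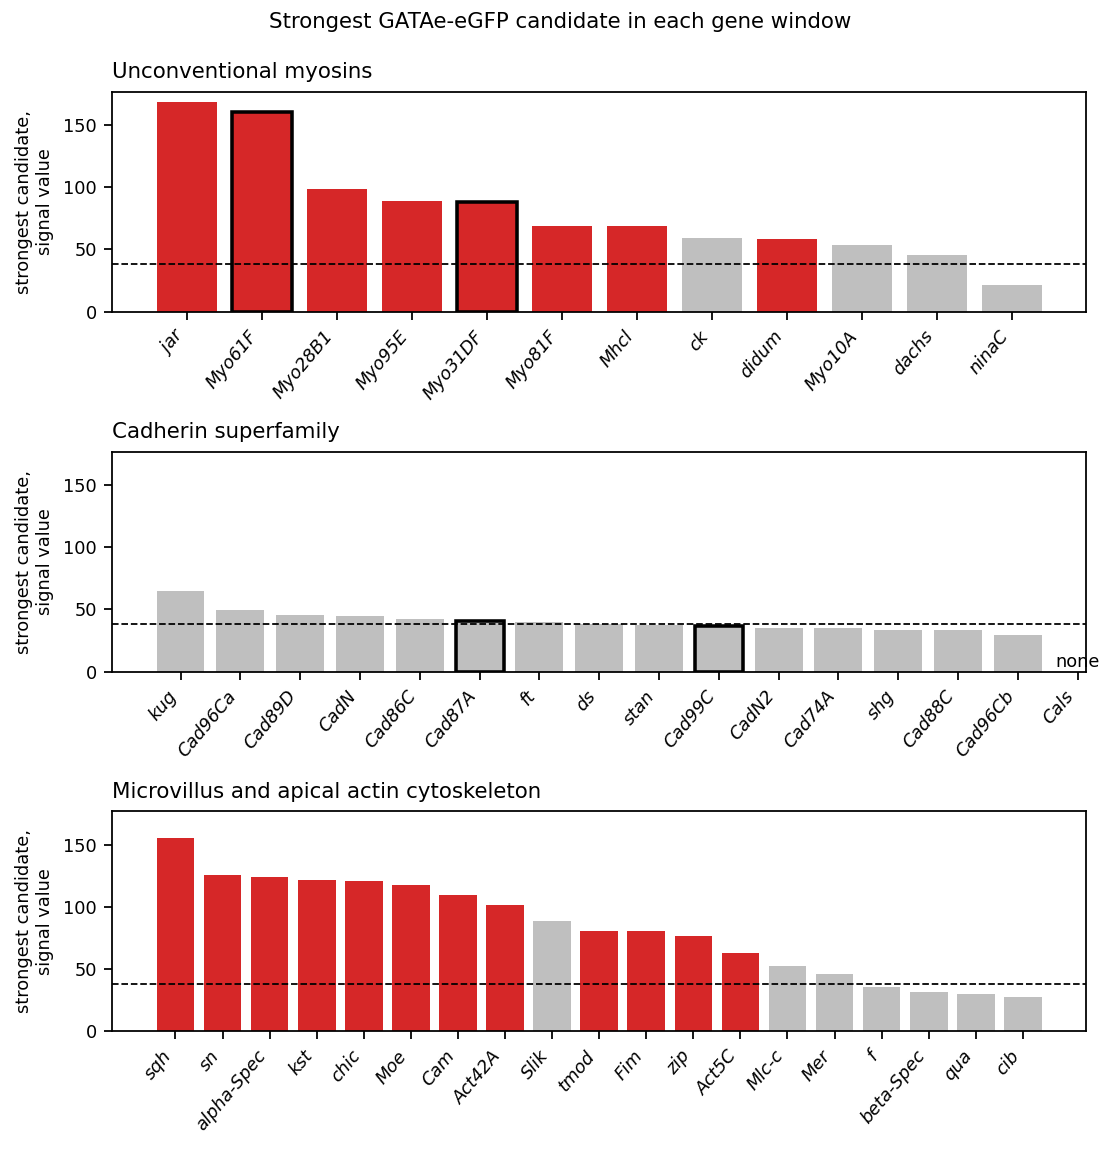
Signal value of the strongest candidate in each gene window, for unconventional myosins, cadherin superfamily genes and genes of the microvillus and apical actin cytoskeleton, with genes holding a conservative summit in red, the others in grey and the 4 genes described here outlined in black. The dashed line is the median over the 11330 protein-coding genes with a candidate, 38.4, whatever their window length. Red bars are present in the myosin and actin cytoskeleton panels and absent from the cadherin panel, where the highest bar is 64.5 and Cals has no candidate.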

How the data were processed

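Whole-embryo GATAe-eGFP chromatin, sheared by sonication to 200 to 800 bp per the labels, was recovered in 2 biological replicates. The authors deposited thresholded and ranked peak lists on dm6 for each replicate, for the replicates paired (the conservative list) and for pooled reads. The deposited score per peak encodes the IDR and stops at 830 in the thresholded lists. The deposited signal is the authors' peak strength. For each member peak shared by the conservative and pooled-read lists, thresholded or ranked, it was the same. It has no common scale with the replicate lists. The −log10 of the IDR stands in the deposited ranked lists. Which aligner and peak caller were used is not given in the sources used here. A control experiment that the labels name was not used here. Read depth is unknown, so values carry no interval.

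Annotation was that of Ensembl (release 115), and bases were read from the dm6 assembly of RefSeq. As a check that they match, 99.8% of 30618 annotated start codons read ATG. A summit was assigned to every window that held it. Lists were compared by at least 1 bp of overlap. No test was run, because there is 1 group of 2 replicates. Members and gene lists were chosen with earlier results of these data known. The text names every member and up to 4 genes per related list with the strongest conservative peak. Other genes were named after their values were seen. One microvillus gene symbol that matched more than 1 gene was left out. Computation used Python 3.11.15, numpy 2.4.6, pandas 2.3.3 and matplotlib 3.10.9.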

Additional observations from a re-analysis of the deposited data

How the results depend on the processing

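Of 72 recomputed values over 9 results, 48 stayed near the reported value and 24 did not. Near meant within 1.5 times a reported count. For the rank of Myo61F it meant within the replicate spread, and for that of Myo31DF within a binomial interval. That interval depends on list length and does not measure the uncertainty of a rank.

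Using 1 replicate's own thresholded list gave 1 to 2 member genes with a summit, 2 summits in each replicate in place of 5, and 1 summit with WGATAR in each in place of 3. Myo31DF held no summit without replicate 1 or among the peaks with the highest score, so it has no rank there. The strongest Myo61F peak stood at 17.6% to 29.2% from the top of those lists, in place of 16.1%, and that of Myo31DF at 45.1% in replicate 1's list, in place of 54.4%. Other unconventional myosins with a summit numbered 3 to 4, in place of 6.

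Only peaks with the highest score left 1 member gene, 2 summits, 1 summit with WGATAR and 2 other myosins. Requiring a summit within 1 kb of a start site left 1 member gene, 3 summits and 7 of the microvillus genes. The ranked list taken at an IDR of 0.05 gave 2 other cadherins (kug and Cad96Ca) and put Myo31DF at 36.2%, and pooled reads put it at 56.5%. The Myo31DF peak and its signal of 88.2 were the same in these lists. Its percentage thus moved only with the other peaks each list holds, and says nothing of the peak itself. A window with 5 kb upstream gave 2 other cadherins (Cad89D and ft), gene body only lost Myo95E among the other myosins, and any overlap of the peak gave 1 (Cad89D). Cad99C and Cad87A held no peak under any of these settings.

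WGATAR in the whole peak was found at 5, bare GATA within 50 bp at 5 and TGATAA at 1 of the conservative summits. With the replicates' ranked lists, 5 peaks overlapped both replicates in place of 1, beside 98.9% of all conservative peaks.

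No paired analysis was possible because there is 1 group. With 2 replicates, no control used and unknown depth, a gene with no peak is a gene with none above these thresholds, not a gene without binding.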
